A study of Mus musculus with 26 samples.

Results

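Left ventricles of mice that overexpress the kinase Mst-1 held less RNA of most of the ligands that start and shape blood vessel growth. Angpt1, which encodes angiopoietin-1, was 5.76-fold lower in Mst-1 overexpressing hearts than in wild type, with a log2 fold change of -2.53 ± 0.17 (SE). Apln, which encodes the peptide apelin, differed by -1.76 ± 0.14 on the log2 scale, and Vegfa, the main growth factor of endothelial cells, by -0.95 ± 0.08. Vegfc, best known as a ligand of lymphatic vessels, was the one gene of the group that was higher, by 0.54 ± 0.10. The related ligands Figf and Angpt4, outside the group, were also higher, Angpt4 from only 1 to 10 counts per wild-type library. Of 14 endothelial markers 11 were lower, where 26.8% of all genes were lower, and 5 were lower when libraries were scaled by their totals alone. The same directions were seen with galectin-3 knocked out. Nrp2, which encodes neuropilin-2, was the one gene of the group called between hearts with and without galectin-3, lower in the knockout when Mst-1 was overexpressed. That was 1 of 10 genes, where 4.89% of all genes were called. The Mst-1 response of Nrp2 was not shown to differ with galectin-3, and its ratio to the endothelial gene Pecam1 overlapped between these groups.

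The genes described are the ligands Vegfa, Vegfb, Vegfc, Pgf, Angpt1, Angpt2 and Apln, the apelin receptor Aplnr, and the neuropilins Nrp1 and Nrp2. They were chosen by symbol, and all 10 were present among the 15249 genes of the counts table. Vascular endothelial growth factors bind the receptor tyrosine kinases Flt1, Kdr and Flt4, with the neuropilins as co-receptors that also serve class 3 semaphorins. Angiopoietin-1 activates the receptor Tek and keeps vessels quiet and sealed, while angiopoietin-2 competes with it in many settings and marks vessels under remodelling. Apelin acts through the G protein-coupled receptor Aplnr, promotes vessel growth and is known in the heart for raising contractility.

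RNA was measured in 26 libraries of rRNA-depleted total RNA from the left ventricle of C57BL6 mice. The groups were Mst1Gal3 (both Mst-1 overexpressing and a Gal-3 knock out, 5 libraries), MstTg (Mst-1 overexpressing, 7), Gal3Ko (Gal-3 knock out, 8) and wt (wild type, 6). Mice of this transgenic kind serve to model dilated cardiomyopathy, and galectin-3 loss was set against intact galectin-3 with and without Mst-1 overexpression. The sources used here do not give the promoter of the transgene, the cells it is active in, age or sex. They also do not say that each library came from a separate animal, so p-values measure the spread between these libraries, which may be technical.

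Library totals ran between 18580405 and 32663735 counts. Stk4, the gene of Mst-1, had 19919 to 28364 counts in Mst1Gal3 and 22011 to 31877 in MstTg. Without the transgene it had 388 to 718 counts in Gal3Ko and 454 to 692 in wt. Lgals3, the gene of galectin-3, had 64 to 151 counts in Mst1Gal3 against 1126 to 1791 in MstTg. It was low in both groups without the transgene, at 22 to 64 counts in Gal3Ko and 19 to 49 in wt, so these counts do not check the label of Gal3Ko. In 6 libraries (Mst1Gal3 replicate 3, MstTg replicate 5, Gal3Ko replicates 4, 5 and 8, and wt replicate 5) the atrial genes Myl7, Myl4 and Sln summed to over 30 CPM (counts scaled to the size of the library). Member calls are given without them where they differ. The mitochondrial genome took on average 18.7% of counts in Mst1Gal3 and 17.7% in MstTg, against 33.0% in Gal3Ko and 31.0% in wt. CPM below are therefore scaled by TMM factors, which set libraries on the bulk of their genes.

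On GRCm38, in GENCODE M21, the VEGF family genes are Vegfa at chr17:46016993-46032369 on the minus strand, Vegfb at chr19:6982473-6987651 on the minus strand, Vegfc at chr8:54077606-54187096 on the plus strand and Pgf at chr12:85166635-85177790 on the minus strand. Angpt1 is at chr15:42424723-42676977 and Angpt2 at chr8:18690263-18741562, both on the minus strand. Apln is at chrX:48025146-48034853 on the minus strand, and Aplnr at chr2:85136225-85139923 on the plus strand. Nrp1 is at chr8:128358604-128503363 and Nrp2 at chr1:62703285-62818695, both on the plus strand. Counts were per gene, over exons in this annotation of 1605 bases for Vegfb and up to 11842 bases for Nrp2. Angpt1 shares 737 exon bases with the antisense gene Gm17473. The library kit is directional but the sources used here do not give the strand setting of the counting, so Angpt1 counts may hold reads of Gm17473. Angpt2 lies inside Mcph1 on the opposite strand and shares no exon base with it.

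The promoter windows of Apln, Pgf and Vegfb, 3 of the members that were lower with Mst-1 overexpression, are shown beside that of Vegfc, which was higher. Windows of Vegfa, Nrp1 and Nrp2 and a second one of Pgf were searched but are not shown. RefSeq windows on GRCm38.p6 were matched for 7 of the 10 genes, in 9 windows of which the 250 bases before the start were read. They were searched on both strands for ACGTG and GCGTG, cores of the hypoxia response element, and for GGAATG, the core bound by TEAD factors, the partners of the Hippo pathway in which Mst-1 acts. Capitals mark the matches, which on the opposite strand read CACGC for GCGTG.
Apln (chrX:48034854-48035103, minus strand): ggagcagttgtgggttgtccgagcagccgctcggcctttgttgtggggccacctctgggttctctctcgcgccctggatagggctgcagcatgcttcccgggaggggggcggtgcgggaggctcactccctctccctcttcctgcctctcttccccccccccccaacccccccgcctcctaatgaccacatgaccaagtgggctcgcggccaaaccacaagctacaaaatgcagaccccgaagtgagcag
Pgf (chr12:85177314-85177563, minus strand): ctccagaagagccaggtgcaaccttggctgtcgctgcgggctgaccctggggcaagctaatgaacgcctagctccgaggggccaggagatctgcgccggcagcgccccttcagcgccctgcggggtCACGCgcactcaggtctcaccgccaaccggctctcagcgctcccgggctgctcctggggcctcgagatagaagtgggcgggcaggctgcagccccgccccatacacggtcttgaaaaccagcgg
Vegfb (chr19:6987652-6987901, minus strand): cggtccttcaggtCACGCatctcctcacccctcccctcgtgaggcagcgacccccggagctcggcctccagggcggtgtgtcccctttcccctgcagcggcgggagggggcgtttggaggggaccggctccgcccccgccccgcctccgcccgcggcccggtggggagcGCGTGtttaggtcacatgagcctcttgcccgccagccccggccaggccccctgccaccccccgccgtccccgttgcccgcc
Vegfc (chr8:54077282-54077531, plus strand): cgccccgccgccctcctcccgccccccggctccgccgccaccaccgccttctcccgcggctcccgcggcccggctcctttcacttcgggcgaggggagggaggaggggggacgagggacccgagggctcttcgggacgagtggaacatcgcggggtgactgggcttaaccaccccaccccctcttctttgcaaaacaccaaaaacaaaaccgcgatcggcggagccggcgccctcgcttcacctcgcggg

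The Pgf match begins 124 bases before the start, and the Vegfb matches begin 237 and 81 bases before it. The Apln and Vegfc windows hold neither core. In the windows not shown, Nrp1 and Nrp2 hold GCGTG. For Vegfa the window at chr17:46032378-46032627, upstream of the gene, holds neither core, while that at chr17:46025164-46025413, inside the gene, holds both. The second Pgf window holds neither. Of the 9 windows 4 lie wholly inside their gene, before the starts of transcripts within it: those of Nrp1, both of Pgf and the second of Vegfa. Of the 9 windows 5 held ACGTG or GCGTG, against 38.6% of 32851 RefSeq promoters over the same length. GGAATG was in none of the 9 windows and in 12.6% of all promoters. These are matches of letters in this window and not binding sites.

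Per length of transcript, Vegfb and Vegfa were the most abundant of the 10 genes in every group. In RPKM, which are CPM per kilobase of exon, Vegfb averaged 60.5 in Mst1Gal3, 51.1 in MstTg, 91.7 in Gal3Ko and 89.0 in wt. Vegfa followed at 36.5 RPKM in Mst1Gal3, 31.9 in MstTg, 64.7 in Gal3Ko and 61.5 in wt. Nrp1, Aplnr and Nrp2 came next, with 22.7, 10.7 and 5.86 RPKM in wt, and in wt no neighbours in this order overlapped as far as Nrp2.

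The lower part of that order differed between hearts with and without Mst-1 overexpression. In wt the order after Nrp2 was Apln at 4.70 RPKM, Angpt1 at 4.35, Vegfc at 2.11, Pgf at 1.08 and Angpt2 at 0.901. Nrp2 overlapped Apln there, Apln overlapped Angpt1, and Pgf overlapped Angpt2. In MstTg Vegfc stood directly after Nrp2 at 3.07 RPKM, followed by Apln at 1.38, Angpt1 at 0.758, Angpt2 at 0.555 and Pgf at 0.495. Vegfc was above Apln in every library of MstTg and Mst1Gal3, whereas it was below Apln in every library of Gal3Ko and wt.

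**Figure D1:**
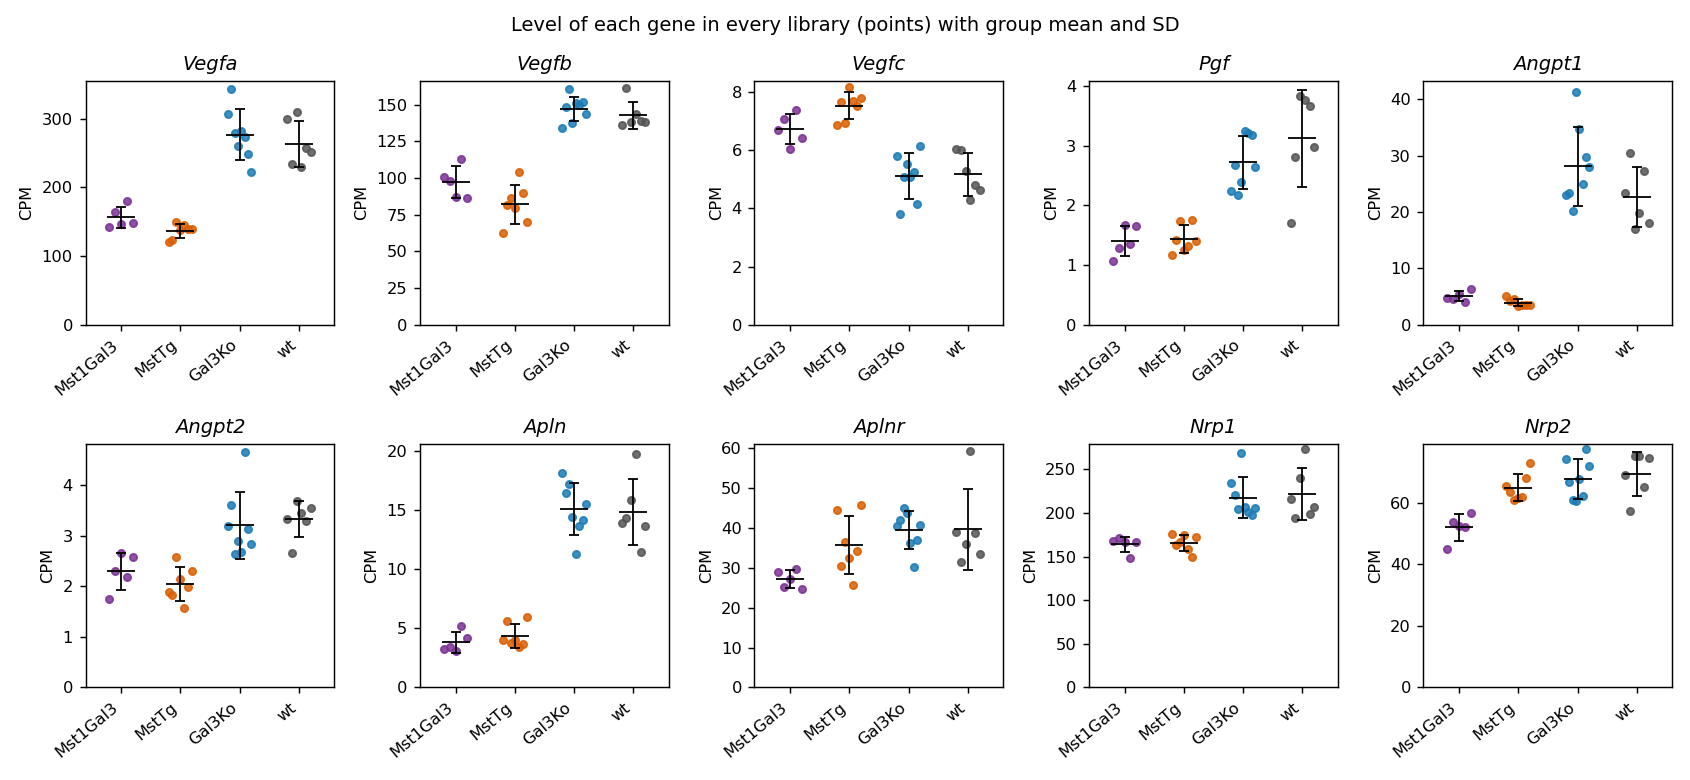
CPM of each gene (vertical axes, from 0) in every library (points) of Mst1Gal3, MstTg, Gal3Ko and wt, with the group mean as a dash and the SD as bars. Angpt1 and Apln show the widest gap between the groups with Mst-1 overexpression and those without, Vegfc is higher in MstTg than in wt, and Nrp2 is lower in Mst1Gal3 than in the other groups.

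The first question was how Mst-1 overexpression changed these genes in hearts with galectin-3. In MstTg against wt, 8 of the 10 genes passed the test, 7 lower and 1 higher, where 55% of all 15249 genes passed, 28.2% higher and 26.8% lower. The median log2 fold change of the 10 genes was -0.75, against 0.02 over all genes. Counts were compared by edgeR's quasi-likelihood test, two-sided, and a gene passed where its p, adjusted by Benjamini and Hochberg's method over the whole table, was under 0.05. Adjusted p-values below are from this test, and differences between groups written with ± are log2 fold changes with their SE.

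Among the VEGF ligands, Vegfa had between 121 and 150 CPM in MstTg with a median of 139, against 230 to 309 with a median of 254 in wt. Every MstTg library was below every wt library, and the log2 fold change was -0.95 ± 0.08 (SE, adjusted p = 2.44e-11). Vegfb, a ligand of Flt1 that is abundant in heart muscle, had 62.3 to 104 CPM in MstTg with a median of 81.9, against 136 to 161 with a median of 139 in wt. Its groups were also apart, with a log2 fold change of -0.80 ± 0.08 (adjusted p = 4.46e-10). Pgf, placenta growth factor, which also binds Flt1, had 1.17 to 1.75 CPM in MstTg with a median of 1.40, against 1.71 to 3.82 with a median of 3.32 in wt. One wt library lay within the MstTg range, and the log2 fold change was -1.12 ± 0.16 (adjusted p = 5.51e-07). Pgf rested on few reads, 26 to 45 in MstTg and 37 to 80 in wt.

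Vegfc, which signals through Flt4, went the other way. It had 6.87 to 8.17 CPM in MstTg with a median of 7.68, against 4.28 to 6.05 with a median of 5.04 in wt. All MstTg libraries were above all wt libraries, and the log2 fold change was 0.54 ± 0.10 (adjusted p = 1.78e-05).

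Of the angiopoietins, Angpt1 had 3.25 to 5.06 CPM in MstTg with a median of 3.56, against 17.0 to 30.4 with a median of 21.5 in wt. The groups were far apart, and with an adjusted p of 5.22e-13 Angpt1 had the 87th lowest log2 fold change of all genes. Angpt2 had 1.57 to 2.59 CPM in MstTg with a median of 1.997, against 2.66 to 3.68 with a median of 3.39 in wt. Its groups did not overlap either, with a log2 fold change of -0.70 ± 0.14 (adjusted p = 5.92e-05) beside -2.53 ± 0.17 for Angpt1.

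Apelin and its receptor differed. Apln had 3.42 to 5.99 CPM in MstTg with a median of 3.98, against 11.4 to 19.8 with a median of 14.1 in wt. The groups did not overlap, and the adjusted p was 5.26e-12. Aplnr had 25.8 to 45.7 CPM in MstTg with a median of 34.3, against 31.4 to 59.3 with a median of 37.3 in wt. These ranges overlapped widely, and the log2 fold change of -0.15 had a 95% interval of -0.42 to 0.12 (adjusted p = 0.343), so a drop as large as that of Apln lies outside it.

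Of the neuropilins, one passed the test. Nrp1, the co-receptor mainly of arterial endothelium, had 150 to 175 CPM in MstTg with a median of 167, against 195 to 273 with a median of 211 in wt. Its groups were apart, with a log2 fold change of -0.42 ± 0.07 (adjusted p = 1.02e-05). Nrp2, the co-receptor mainly of veins and lymphatic vessels, had 60.9 to 72.9 CPM in MstTg with a median of 63.3, against 57.4 to 75.1 with a median of 71.7 in wt. The ranges overlapped, with a log2 fold change of -0.10 and a 95% interval of -0.24 to 0.04 (adjusted p = 0.246).

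In all, 7 of the 10 genes had MstTg and wt libraries that did not overlap in CPM, 6 lower and 1 higher, where 32.2% of all genes did so, 16.2% lower and 15.9% higher.

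The second question was the same contrast in hearts without galectin-3. In Mst1Gal3 against Gal3Ko all 10 genes passed the test, 9 lower and 1 higher, where 52.5% of all genes passed, 26.9% higher and 25.6% lower. Their median log2 fold change was -0.57, against 0.01 over all genes. Libraries of the 2 groups did not overlap for 8 of the 10 genes, all lower in Mst1Gal3, where 31.1% of all genes did so, 14.5% lower and 16.5% higher. Vegfc and Angpt2 were the exceptions.

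Angpt1 had 4.72, 4.61, 5.41, 4.09 and 6.40 CPM in the 5 Mst1Gal3 libraries, against 20.1 to 41.3 with a median of 26.5 in Gal3Ko. No Mst1Gal3 library came near the Gal3Ko range, and the log2 fold change was -2.48 ± 0.18 (adjusted p = 3.53e-12). Apln had 3.21, 3.42, 3.10, 5.18 and 4.17 CPM in Mst1Gal3, against 11.3 to 18.1 with a median of 14.9 in Gal3Ko. These groups were as clearly apart, with a log2 fold change of -1.98 ± 0.15 (adjusted p = 3.55e-12).

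Vegfa had 143, 164, 147, 180 and 148 CPM in Mst1Gal3, against 222 to 344 with a median of 276 in Gal3Ko. Its log2 fold change was -0.82 ± 0.09 (adjusted p = 1.71e-09), with no overlap. Vegfb had 101, 98.1, 87.0, 113 and 86.5 CPM in Mst1Gal3, against 134 to 160 with a median of 149 in Gal3Ko. It was lower in every library, at -0.60 ± 0.08 (adjusted p = 3.48e-07). Pgf had 1.07, 1.28, 1.67, 1.35 and 1.65 CPM in Mst1Gal3, against 2.18 to 3.25 with a median of 2.65 in Gal3Ko. Its libraries were apart, with a log2 fold change of -0.94 ± 0.17 (adjusted p = 2.46e-05).

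Vegfc had 6.70, 7.08, 6.06, 7.38 and 6.44 CPM in Mst1Gal3, against 3.80 to 6.15 with a median of 5.17 in Gal3Ko. The ranges touched, and the log2 fold change was 0.39 ± 0.10 (adjusted p = 0.00135). Angpt2 had 1.74, 2.31, 2.65, 2.19 and 2.59 CPM in Mst1Gal3, against 2.63 to 4.67 with a median of 3.01 in Gal3Ko. One Mst1Gal3 library reached the lowest Gal3Ko library, and the log2 fold change was -0.48 ± 0.14 (adjusted p = 0.00525).

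The receptor and both co-receptors were lower in these hearts. Aplnr had 29.0, 25.1, 27.2, 29.6 and 24.6 CPM in Mst1Gal3, against 30.1 to 44.8 with a median of 40.6 in Gal3Ko. The highest Mst1Gal3 library lay just under the lowest Gal3Ko library, and the log2 fold change was -0.54 ± 0.14 (adjusted p = 0.00161). Nrp1 had 168, 171, 166, 149 and 167 CPM in Mst1Gal3, against 198 to 269 with a median of 206 in Gal3Ko. It was lower in every library, at -0.41 ± 0.08 (adjusted p = 2.84e-05). Nrp2 had 44.9, 53.8, 52.3, 52.1 and 56.7 CPM in Mst1Gal3, against 60.5 to 77.5 with a median of 67.2 in Gal3Ko. Its groups were apart too, with a log2 fold change of -0.38 ± 0.07 (adjusted p = 3.50e-05).

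The choice of scaling touched the smaller of these values. With library totals in place of TMM factors, the median log2 fold change of all genes moved to 0.27 in MstTg against wt and to 0.24 in Mst1Gal3 against Gal3Ko, and the split of calls to 7789 higher and 2166 lower in the first and 7374 higher and 1929 lower in the second, against 4302 higher and 4083 lower and 4108 higher and 3905 lower with TMM. In Mst1Gal3 against Gal3Ko, Angpt2 at -0.25 (adjusted p = 0.156), Aplnr at -0.30 (adjusted p = 0.0578) and Nrp2 at -0.15 (adjusted p = 0.0970) then missed the threshold. The values of Aplnr and Nrp2 in MstTg against wt turned to 0.10 and 0.15, both without a call.

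**Figure D2:**
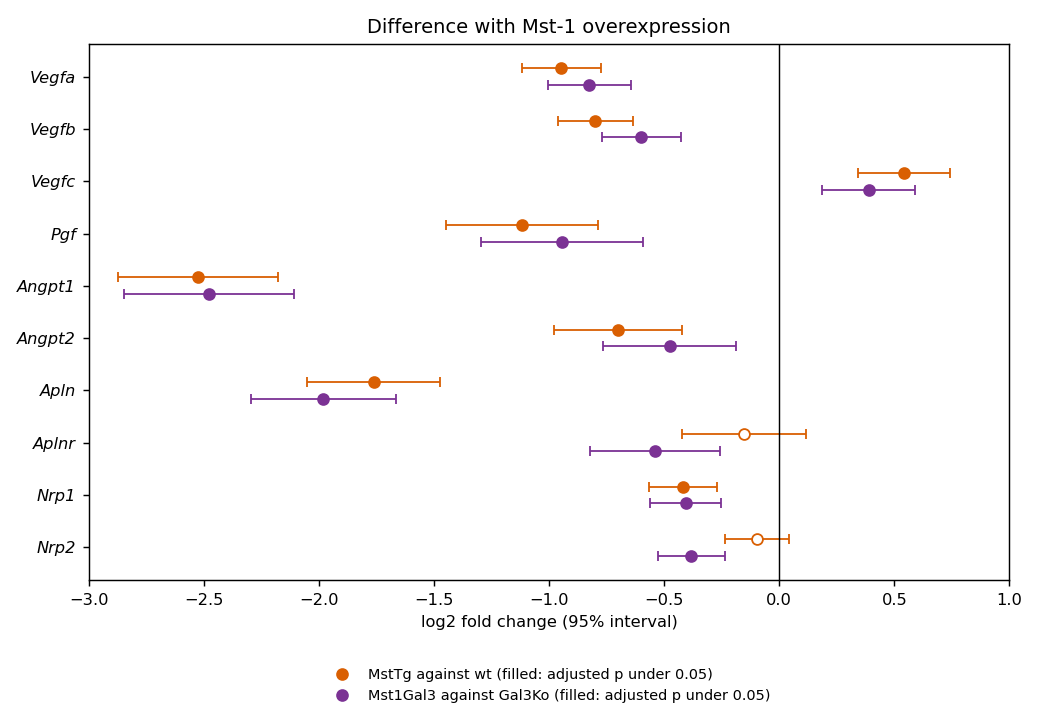
Log2 fold change (horizontal axis) with its 95% interval (bars) of each gene in MstTg against wt and in Mst1Gal3 against Gal3Ko, with TMM scaling. Filled points passed an adjusted p of 0.05 and open points did not: Angpt1 and Apln lie farthest to the left, Vegfc is the one gene to the right of 0, and Aplnr and Nrp2 are open in MstTg against wt.

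Ratios of read counts within a library do not depend on the scaling. Angpt2 counts were 0.460 ± 0.070 of Angpt1 counts in Mst1Gal3 (SD, n = 5) and 0.529 ± 0.111 in MstTg (n = 7), against 0.121 ± 0.040 in Gal3Ko (n = 8) and 0.156 ± 0.049 in wt (n = 6). The lowest ratio with Mst-1 overexpression was 0.370 and the highest without it was 0.217, so no library of either kind overlapped the other. The ratio of Apln to Aplnr was 0.141 ± 0.030 in Mst1Gal3 and 0.125 ± 0.031 in MstTg, against 0.385 ± 0.050 in Gal3Ko and 0.382 ± 0.063 in wt. The ratio of Vegfc to Vegfa was 0.0432 ± 0.0024 in Mst1Gal3 and 0.0553 ± 0.0050 in MstTg, against 0.0189 ± 0.0046 in Gal3Ko and 0.0198 ± 0.0031 in wt. Both of these ratios also separated every library with Mst-1 overexpression from every library without it. These ratios are not corrected for transcript length and no test was made of them.

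**Figure D3:**
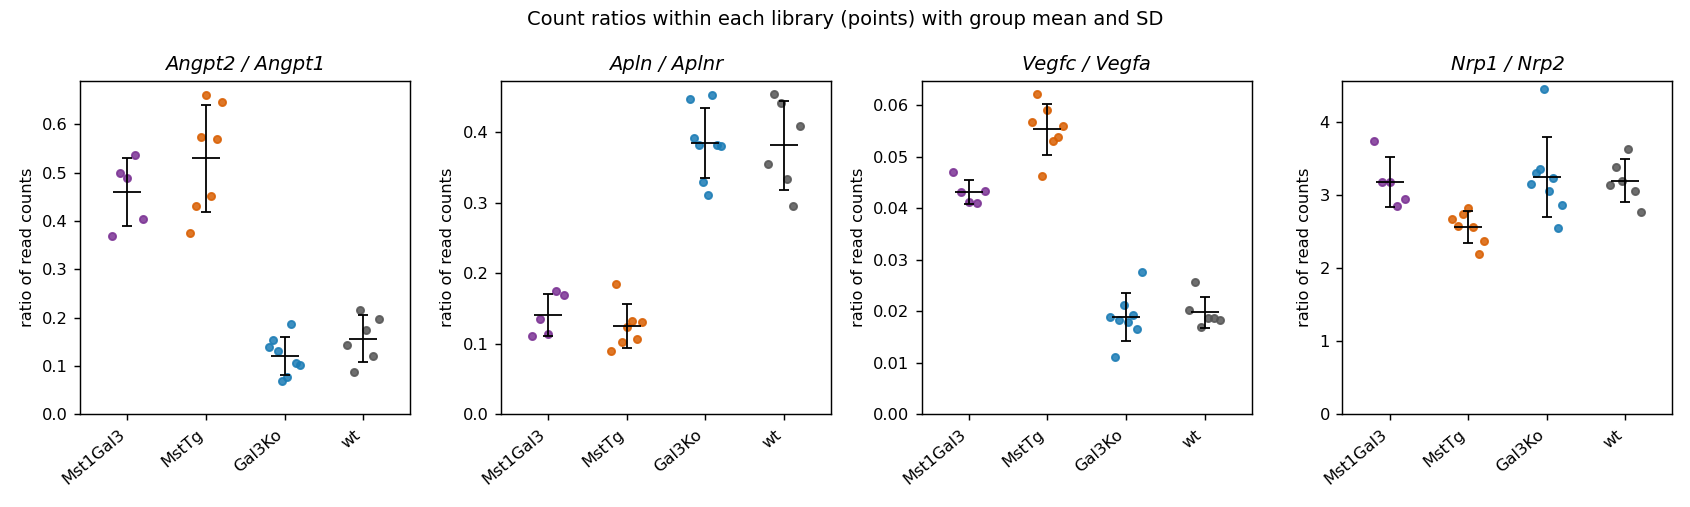
Ratio of read counts (vertical axes, from 0) within each library (points) of Mst1Gal3, MstTg, Gal3Ko and wt, with the group mean as a dash and the SD as bars. Angpt2 over Angpt1 and Vegfc over Vegfa are higher, and Apln over Aplnr lower, in Mst1Gal3 and MstTg, while Nrp1 over Nrp2 has its lowest mean in MstTg.

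Endothelial genes were lower with Mst-1 overexpression as well. Of 14 endothelial markers 11 were lower and 0 higher in MstTg against wt, where 26.8% of all genes were lower. In Mst1Gal3 against Gal3Ko 10 were lower and 0 higher, where 25.6% of all genes were lower. Cd36, a fatty acid transporter, differed by -1.05 ± 0.07 and Cdh5, the adhesion protein of endothelial junctions, by -0.53 ± 0.07 on the log2 scale in MstTg against wt. Summed over the 14 genes, which were all detected, the level ranged over 1522 to 1824 CPM in Mst1Gal3 and 1556 to 1643 CPM in MstTg. The sums ranged over 2442 to 2716 CPM in Gal3Ko and 2575 to 2765 CPM in wt. Much of that sum was Cd36, which cardiomyocytes also express and which averaged 804 CPM in Mst1Gal3 and 682 CPM in MstTg, against 1398 CPM in Gal3Ko and 1415 CPM in wt. The other 13 genes summed to 810 to 938 CPM in Mst1Gal3 and 866 to 1012 CPM in MstTg, against 1064 to 1363 CPM in Gal3Ko and 1143 to 1419 CPM in wt. Without Cd36 too, the sums with Mst-1 overexpression were all below those without it. With library totals the counts were 5 lower and 0 higher in MstTg against wt, and 7 lower and 2 higher in Mst1Gal3 against Gal3Ko. In such bulk RNA, fewer cells of a type and less RNA per cell cannot be told apart, and the part of endothelial content in the members' differences was not tested.

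Set beside Pecam1, an endothelial adhesion molecule, the members differed in whether groups overlapped. Pecam1 itself averaged 96.9 CPM in Mst1Gal3 and 107 CPM in MstTg, against 129 CPM in Gal3Ko and 137.5 CPM in wt. The ratios therefore move with Pecam1 as well as with the member, and whether groups overlap may depend on the marker used as the base. Apln counts were 0.0396 of Pecam1 counts in Mst1Gal3 and 0.0407 in MstTg, against 0.117 in Gal3Ko and 0.107 in wt. Angpt1 was at 0.0523 of Pecam1 in Mst1Gal3 and 0.0369 in MstTg, against 0.218 in Gal3Ko and 0.165 in wt. For both genes the libraries with Mst-1 overexpression were all below those without. Vegfc was at 0.0697 of Pecam1 in Mst1Gal3 and 0.0705 in MstTg, against 0.0396 in Gal3Ko and 0.0378 in wt, and all libraries with Mst-1 overexpression were above those without. Vegfa was at 1.62 in Mst1Gal3 and 1.28 in MstTg, against 2.15 in Gal3Ko and 1.92 in wt. The MstTg and wt libraries were apart for Vegfa, while those of Mst1Gal3 and Gal3Ko overlapped.

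For the other members both pairs of groups overlapped. Vegfb was at 1.01 of Pecam1 in Mst1Gal3 and 0.769 in MstTg, against 1.14 in Gal3Ko and 1.04 in wt. Pgf was at 0.0145 in Mst1Gal3 and 0.0134 in MstTg, against 0.0211 in Gal3Ko and 0.0226 in wt. Nrp2 was at 0.537 in Mst1Gal3 and 0.606 in MstTg, against 0.524 in Gal3Ko and 0.505 in wt. The means of Vegfb and Pgf were lower with Mst-1 overexpression, and those of Nrp2 were not. Nrp1 stood at 1.70 of Pecam1 in Mst1Gal3 and 1.55 in MstTg, against 1.69 in Gal3Ko and 1.61 in wt. Aplnr stood at 0.281 in Mst1Gal3 and 0.332 in MstTg, against 0.306 in Gal3Ko and 0.287 in wt, and Angpt2 at 0.0237 in Mst1Gal3 and 0.0191 in MstTg, against 0.0249 in Gal3Ko and 0.0242 in wt.

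Markers of other cell types differed in MstTg against wt, for several lists in both directions. All 7 fibroblast markers were higher in MstTg than in wt, and their summed level was 2470 to 2907 CPM in MstTg, against 713 to 958 CPM in wt. Of 9 mural cell markers 1 was higher (Cspg4, by 1.91 ± 0.11) and 4 were lower, among them Abcc9 at -1.09 ± 0.06. Abcc9 encodes a channel subunit and is not particular to mural cells. With library totals 3 of the 9 markers were higher and 3 lower. Of 7 cardiomyocyte markers 2 were higher and 5 lower, with Tnni3, cardiac troponin I, at -1.20 ± 0.08. Of the lymphatic markers, 5 of 6 were measured, 3 were higher (Reln by 2.19 ± 0.12) and 1 was lower (Prox1, at -0.57 ± 0.09). Of 7 macrophage markers 2 were higher, with Cd68 at 1.11 ± 0.14, and 5 were not called. Summed levels of 3 lists overlapped between MstTg and wt. Macrophage markers summed to 223 to 267 CPM in MstTg and 174 to 325 CPM in wt, and lymphatic markers to 175 to 209 CPM and 165 to 203 CPM. Cardiomyocyte markers summed to 104940 to 123840 CPM in MstTg and 88638 to 115130 CPM in wt. Mural cell markers were apart, at 880 to 1037 CPM in MstTg and 1233 to 1554 CPM in wt. The part of each of these cell types in the members' differences was not tested.

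The receptors of the ligands changed in both directions. In MstTg against wt, Flt1, which binds Vegfa, Vegfb and Pgf, was lower at -0.54 ± 0.07 (adjusted p = 2.01e-08), and Kdr, the main signalling receptor of Vegfa, at -0.78 ± 0.08 (adjusted p = 5.36e-10). Flt4, the receptor of Vegfc, was higher by 0.16 ± 0.07 (adjusted p = 0.0450), a call kept in 24 of 36 alternative settings. The angiopoietin receptor Tek was lower at -0.45 ± 0.05 (adjusted p = 1.54e-08) and its partner Tie1 at -0.36 ± 0.10 (adjusted p = 0.00229). In Mst1Gal3 against Gal3Ko the log2 fold changes were -0.51 ± 0.07 for Flt1, -0.54 ± 0.08 for Kdr, 0.18 ± 0.07 for Flt4, -0.52 ± 0.06 for Tek and -0.51 ± 0.10 for Tie1, and all 5 passed the test. The Flt4 call there was kept in 29 of 36 settings and lost without the 6 libraries with atrial genes. Tie1 in MstTg against wt lost its call with library totals.

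Other ligands of these families were measured for 2 of 4 genes, and both were higher. Figf, which encodes VEGF-D, another ligand of Flt4, was higher by 0.75 ± 0.15 in MstTg against wt (adjusted p = 9.06e-05) and by 1.14 ± 0.15 in Mst1Gal3 against Gal3Ko (adjusted p = 1.26e-07). Angpt4, a further angiopoietin, was higher by 2.09 ± 0.40 in MstTg against wt, on 12 to 31 counts per library in MstTg and 1 to 10 in wt.

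Class 3 semaphorins and plexins, many of which act together with neuropilins, were mostly higher. Of 12 genes, 8 were higher and 3 lower in MstTg against wt, and 7 higher and 3 lower in Mst1Gal3 against Gal3Ko. Sema3e, which binds plexin D1 and repels endothelial cells, had the largest of these log2 fold changes, 4.32 ± 0.22 in MstTg against wt (adjusted p = 3.38e-17). Its mean was 6.20 CPM in MstTg and only 0.305 CPM in wt, so the size of this change rests on few reads in wt. Sema3d was higher by 2.31 ± 0.13, Sema3c by 1.58 ± 0.06 and the receptor Plxna3 by 1.14 ± 0.15. With library totals the split was 9 higher and 0 lower in MstTg against wt and 9 higher and 1 lower in Mst1Gal3 against Gal3Ko.

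Inhibitors of vessel growth were higher too. Of 6 genes 5 were higher and 0 lower in MstTg against wt. Serpinf1, pigment epithelium-derived factor, was higher by 2.44 ± 0.09 (adjusted p = 7.63e-21), Thbs1, thrombospondin-1, by 1.99 ± 0.24, Sparc, a matrix protein, by 1.24 ± 0.13, and Col18a1, the source of endostatin, by 0.80 ± 0.14. In Mst1Gal3 against Gal3Ko 4 were higher and 1 lower, and the 1 lower call was kept in 28 of 36 alternative settings. It was lost with library totals, without the 6 libraries with atrial genes and with some single libraries left out. Several of these genes are also expressed by fibroblasts, whose markers were higher in the same libraries.

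Genes of the hypoxia-inducible factor system, which drives Vegfa when oxygen is short, went in both directions. Of 9 genes of the factors and their hydroxylases, 1 was higher and 5 lower in MstTg against wt, where 55% of all genes passed. The list holds both factors and hydroxylases, so these counts give no direction of the system. Hif1a, at 0.08 ± 0.07, was not called (adjusted p = 0.339). The part of this system in the lower Vegfa was not tested. Epas1, which encodes HIF-2 alpha, was lower at -0.92 ± 0.06, Egln1, the main prolyl hydroxylase, at -1.01 ± 0.07, and Hif3a at -1.09 ± 0.29, while Arnt was higher by 0.37 ± 0.04. Hif3a was low in both groups, with a mean of 0.541 CPM in MstTg and 1.14 CPM in wt. Of the hypoxia-inducible targets other than members, 11 of 12 were measured, 2 were higher and 5 lower. Slc2a1, the glucose transporter GLUT1, was higher by 1.67 ± 0.07 and P4ha1, a collagen prolyl hydroxylase, by 0.94 ± 0.12. Vldlr, a lipoprotein receptor, was lower at -1.20 ± 0.05 and Hk2, hexokinase 2, at -0.90 ± 0.06. With library totals the counts were 4 higher and 4 lower for the factors and hydroxylases, and 4 higher and 2 lower for the targets.

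Genes of the endothelial tip cell, which leads a sprout, were divided. Of 7 genes 2 were higher and 3 lower in MstTg against wt, with the netrin receptor Unc5b higher by 1.19 ± 0.09, and the Notch ligand Dll4 and the chemokine receptor Cxcr4 lower at -0.64 ± 0.11 and -0.67 ± 0.16.

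**Figure D4:**
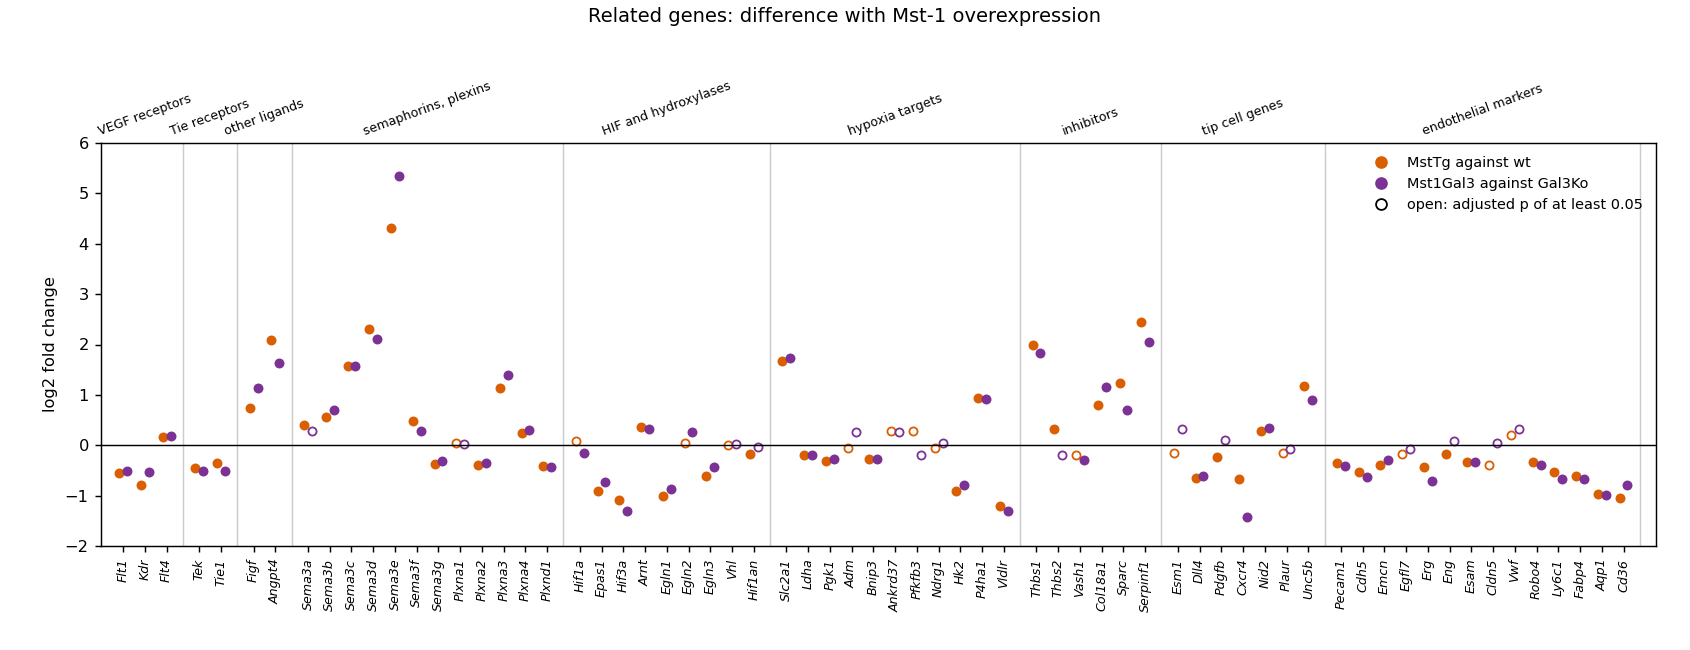
Log2 fold change (vertical axis) of receptors, other ligands, partners, hypoxia genes, inhibitors, tip cell genes and endothelial markers in MstTg against wt and in Mst1Gal3 against Gal3Ko, with TMM scaling. Filled points passed an adjusted p of 0.05: the semaphorin Sema3e has the highest value, and most endothelial markers lie below 0.

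The third question was what galectin-3 loss changed. In Gal3Ko against wt, 0 of the 10 genes passed edgeR's test, where 0.354% of all genes did, and 1 gene, Angpt1, had an unadjusted p under 0.05, where 6.66% of all genes did. DESeq2 and limma-voom also called 0 of the 10. Angpt1 had 20.1 to 41.3 CPM in Gal3Ko, against 17.0 to 30.4 in wt, with a log2 fold change of 0.32 ± 0.15 (adjusted p = 0.734). The libraries of Gal3Ko and wt overlapped for all 10 genes, and 0.289% of all genes had groups that did not overlap. The 95% intervals were narrowest for Nrp2, at -0.17 to 0.10, and Nrp1, at -0.17 to 0.12, and widest for Pgf, at -0.51 to 0.11.

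In Mst1Gal3 against MstTg 1 of the 10 genes passed, where 4.89% of all genes did, 2.54% higher and 2.35% lower. With library totals the calls over all genes were 136 higher and 558 lower, against 387 higher and 359 lower with TMM, and without the 6 libraries with atrial genes they were 647 higher and 380 lower. An unadjusted p under 0.05 was found for 4 of the 10 and for 18.3% of all genes. The gene that passed was Nrp2, which was lower at -0.32 ± 0.07 (adjusted p = 0.00654). Its 5 Mst1Gal3 libraries, at 44.9 to 56.7 CPM, were all below the 7 MstTg libraries, at 60.9 to 72.9 CPM, and 3.31% of all genes had groups apart in this comparison, 2% lower and 1.31% higher. As a ratio to Pecam1 counts, Nrp2 overlapped, at 0.493 to 0.591 in Mst1Gal3 and 0.562 to 0.666 in MstTg. Nrp1 at -0.02 had a 95% interval of -0.17 to 0.14, and the ratio of Nrp1 to Nrp2 counts was 3.18 ± 0.35 in Mst1Gal3 against 2.57 ± 0.22 in MstTg, with 3.25 ± 0.55 in Gal3Ko against 3.20 ± 0.30 in wt.

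The other 3 genes with an unadjusted p under 0.05 were Vegfb, Vegfa and Aplnr. Vegfb differed by 0.24 ± 0.08 (adjusted p = 0.0981) and Vegfa by 0.19 ± 0.09 (adjusted p = 0.225). Aplnr, with 24.6 to 29.6 CPM in Mst1Gal3 and 25.8 to 45.7 in MstTg, differed by -0.39 ± 0.14 (adjusted p = 0.109). Leaving out MstTg replicate 5 brought Vegfb to 0.31 (adjusted p = 0.0121) and Aplnr to -0.46 (adjusted p = 0.0359), so 3 genes passed. Without wt replicate 4, which had the highest Aplnr level, Aplnr passed too (adjusted p = 0.0351), and so it did with library totals (adjusted p = 0.0498). Without the 6 libraries with atrial genes Vegfb passed at 0.35 (adjusted p = 0.0139). Angpt1, at 0.37 ± 0.19 (adjusted p = 0.316), and Apln, at -0.19 ± 0.16 (adjusted p = 0.593), did not pass.

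**Figure D5:**
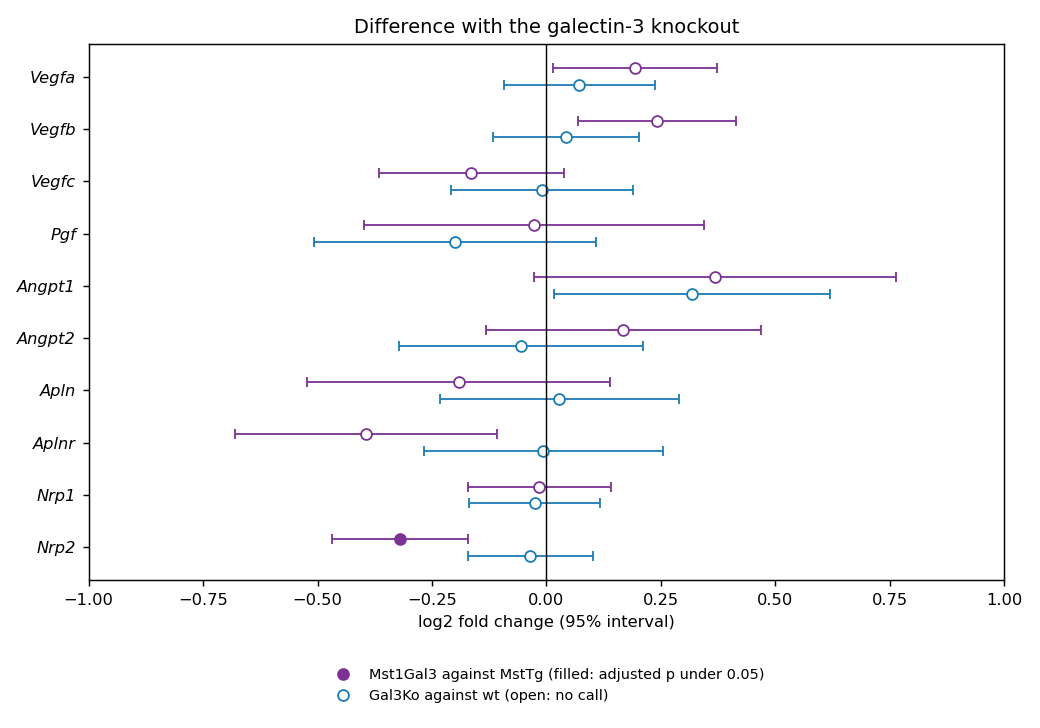
Log2 fold change (horizontal axis) with its 95% interval (bars) of each gene in Mst1Gal3 against MstTg and in Gal3Ko against wt. Nrp2 in Mst1Gal3 against MstTg is the one filled point, which marks an adjusted p under 0.05.

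Among related genes, 3 of 6 inhibitors of vessel growth were lower in Mst1Gal3 against MstTg, with Serpinf1 at -0.43 ± 0.08 (adjusted p = 0.00121), Thbs2 at -0.57 ± 0.12 and Sparc at -0.57 ± 0.13. The 7 fibroblast markers summed to 1909 to 2445 CPM in Mst1Gal3, against 2470 to 2907 CPM in MstTg, and 1 of the 7, Postn, was called lower. The part of fibroblast content in the lower inhibitors was not tested. Of the semaphorins and plexins 1 was higher (Sema3e, by 0.61 ± 0.15) and 1 lower (Sema3d, at -0.49 ± 0.12). Hif1a was lower at -0.33 ± 0.07 (adjusted p = 0.00432). None of the 5 VEGF and angiopoietin receptors passed, and Kdr was nearest at 0.23 ± 0.08 (adjusted p = 0.107). When MstTg replicate 7 was left out, 1 VEGF receptor passed. In the comparison of Gal3Ko with wt no gene of any of these lists passed edgeR's test.

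Whether the Mst-1 response itself differed with galectin-3 was tested as an interaction, the log2 fold change of Mst1Gal3 over MstTg minus that of Gal3Ko over wt. In edgeR's test 0 of the 10 genes passed, where 0.656% of all genes did, 1 had an unadjusted p under 0.05, where 12.2% of all genes did, and DESeq2 and limma-voom called 0. That gene was Nrp2, at -0.29 ± 0.10 (adjusted p = 0.195). Aplnr was next at -0.39 ± 0.19 (adjusted p = 0.410). For Angpt1 the interaction was 0.05 with a 95% interval of -0.44 to 0.54, and for Apln -0.22 with an interval of -0.64 to 0.20. So the calls of Aplnr and Nrp2 in Mst1Gal3 against Gal3Ko, and their absence in MstTg against wt, are not shown to differ.

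The genes whose profile was most like that of the members with the largest changes were found by the root mean square difference of log2 CPM, centred on wt, over the 26 libraries. For Angpt1 they were Maob at 0.33, Plbd1 at 0.35 and Mylk4 at 0.35. For Apln they were Ak4 at 0.23, Syt7 at 0.27 and Sord at 0.27. For Pgf they were Mdga1 at 0.26, Ddt at 0.29 and Lifr at 0.29. No other member was among these 9 genes, out of 12046 genes compared, which left out gene models without a gene name, mitochondrial genes and means under 1 CPM. The measure counts the size of a change as well as its pattern. Members with changes of other sizes could therefore hardly be among them, and their absence does not show whether members vary together. The comparisons share libraries, so Angpt1 and Apln being the lowest of the 10 in both Mst-1 contrasts is given as their values only.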

How the data were processed

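RNA of the left ventricle was depleted of ribosomal RNA and made into directional libraries, per the labels' protocols. STAR, featureCounts, bcl2fastq 2.19.1.403 and the build GRCm38 were used, per the submitters' processing notes. Versions of the aligner and counter, the annotation release and the strand setting were not given in the sources used here. The authors deposited raw read counts per gene with no normalization, for 15249 genes and 26 libraries, and the lowest mean count of any gene was 10.

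Groups were taken from the sample titles. Counts were tested with edgeR 4.0.16 in R 4.3.3 (TMM, filterByExpr, which removed 0 genes, estimateDisp, robust glmQLFit, glmQLFTest), all libraries in 1 fit with 22 residual degrees of freedom, two-sided, with p adjusted by Benjamini-Hochberg over the whole table. The SE is the log2 fold change over the root of its F value. One count in the smallest library equals 0.0538 CPM. RPKM divide CPM by the exon bases of GENCODE M21. The test was checked on simulated counts. No 2 libraries of the same group were duplicates (lowest chi-square per degree of freedom 4.91), and pairs across groups were not compared.

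The members and lists were chosen with earlier results of these data known. Named genes were the members, the receptors, and at most 4 genes of any other list per comparison, those with the smallest p. Hif1a in MstTg against wt was named besides. Alternatives used RLE factors, library totals, no mitochondrial genes, DESeq2 1.42.0, limma-voom (limma 3.58.1), no filter, a mean of at least 1 CPM, only the compared groups, the replicate number as a block, each library left out in turn, and, chosen after seeing the data, no libraries with atrial genes over 30 CPM.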

Additional observations from a re-analysis of the deposited data

Results flagged for a closer look

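Of 40 sets of values (10 genes in 4 groups), 3 held a library that stood apart from the rest of its group by Dixon's criterion, which chance alone meets in about 1 of 20 sets. Nrp1 in Mst1Gal3 replicate 4 was 148.7 CPM, against 166.3 CPM in the nearest library of that group. Vegfb in wt replicate 2 was 161.2 CPM, with the next library at 143.9 CPM. Aplnr in wt replicate 4 was 59.27 CPM, with the next library at 39.0 CPM.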

How the results depend on the processing

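In MstTg against wt the 8 member calls and in Gal3Ko against wt and the interaction the counts of 0 were the same under every alternative run. The 10 calls in Mst1Gal3 against Gal3Ko were 7 with library totals and 10 otherwise. In Mst1Gal3 against MstTg the count of members was 2 with library totals and 2 without the 6 libraries with atrial genes, and 1 to 3 when single libraries were left out. Over all genes, Gal3Ko against wt gave 54 calls, 89 with DESeq2, 33 with only the compared groups and 33 without the 6 libraries. Mst1Gal3 against MstTg gave 746, and 469 to 1040 when single libraries were left out, the lowest without Mst1Gal3 replicate 1. The interaction gave 100, 195 with DESeq2 and 52 to 189 when single libraries were left out.

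The sources used here do not say that replicate numbers pair the libraries. Of 34 same-numbered pairs 11 had a correlation of deviations over 0.1, with a range of -0.34 to 0.28. Those of wt with Gal3Ko ran from -0.018 to 0.220. Pairs with different numbers were not compared, so these values cannot decide whether the numbers pair libraries. A fit with this number as a replicate block gave the interaction 51 calls over all genes, lost the Flt4 call in MstTg against wt and called 1 VEGF receptor in Mst1Gal3 against MstTg.

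Signs turned only for values without a call. With library totals, Aplnr and Nrp2 in MstTg against wt were 0.10 and 0.15, and Vegfb and Apln in Gal3Ko against wt were -0.0171 and -0.0378. In Gal3Ko against wt, limma-voom gave Vegfc 0.0019 and Aplnr 0.0173, the 6 libraries left out gave Angpt2 0.0458, and the replicate block gave Apln -0.0016. The block gave Pgf 0.0251 in Mst1Gal3 against MstTg and Nrp1 -0.0339 in the interaction. With single libraries left out, Gal3Ko against wt gave Vegfc -0.0563 to 0.0404, Apln -0.0361 to 0.1263, Aplnr -0.0645 to 0.1423 and Nrp1 -0.0752 to 0.0434. Mst1Gal3 against MstTg gave Pgf -0.0963 to 0.0557 and Nrp1 -0.0385 to 0.0182, and the interaction gave Angpt1 -0.0524 to 0.1528 and Nrp1 -0.0588 to 0.0598. The causes were not tested. Pgf and Angpt2 had the fewest reads, from 26 and 42 counts in a library.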

Other observations

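Marker lists of tissues that a ventricle sample might carry along gave these counts in MstTg against wt. Of the atrial markers, 4 of 5 were measured and 1 was higher, Nppa, by 4.97 ± 0.26 on the log2 scale. Nppa encodes atrial natriuretic peptide and is also expressed by stressed ventricle. Without the 6 libraries with atrial genes 4 were higher, but those libraries were left out for their levels of Myl7, Myl4 and Sln. These genes are on the list, so that count depends on the choice and is no separate result. Of the mesothelial markers, 3 of 5 were measured and 2 were lower, Upk3b at -1.15 ± 0.39 and Msln at -1.10 ± 0.44, and when single libraries were left out 0 to 2 were lower. Of the skeletal muscle markers, 3 of 5 were measured, and Acta1, which the heart also expresses, was higher by 3.89 ± 0.36 and Tnnt3 by 1.64 ± 0.31, while Ckm, muscle creatine kinase, was lower at -1.93 ± 0.09. None of the 4 adipocyte markers was in the counts table.

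In Mst1Gal3 against MstTg 1 of 14 endothelial markers was lower, the transcription factor Erg, at -0.38 ± 0.08 (adjusted p = 0.00462 in edgeR's test). The receptors Unc5b and Cxcr4 of the tip cell list differed by -0.32 ± 0.09 (adjusted p = 0.0414) and -0.52 ± 0.18 (adjusted p = 0.0884) in that comparison. The 1 lower call on the tip cell list was kept in 28 of 36 alternative settings and lost with some single libraries left out. Of the lymphatic markers 1 was lower, Reln, at -0.57 ± 0.12 (adjusted p = 0.00342), and of the fibroblast markers 1, Postn, at -0.76 ± 0.16 (adjusted p = 0.00593).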
